A study of Mus musculus with 4 samples.

Results

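The mitochondrial ribosomal protein genes are the nuclear genes whose symbols begin with Mrpl or Mrps followed by a digit. Both deposited tables listed 77 of them, out of 14939 genes in the table for the ACE sort and 14943 genes in the table for the CD74 sort. By symbol, 48 encode proteins of the large subunit (Mrpl) and 29 of the small subunit (Mrps). They lie on 17 chromosomes. RNA-seq was run on cells of mouse periosteum, the tissue sheath around bone, from male wild-type C57BL/6 mice at postnatal day 28. Cells bearing CD45 and CX3CR1, the gate used for macrophages of the periosteum, were sorted into 4 groups of 1 library each. These were CX3CR1+ACE+ and CX3CR1+ACE- cells, parted by angiotensin-converting enzyme, and CX3CR1+CD74+ and CX3CR1+CD74- cells, parted by the invariant chain of MHC class II. The number of animals behind a library is not given in the labels, and with 1 library per group there is no replicate against which to check a difference.

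Mitochondria keep a ribosome of their own, the mitoribosome, which translates the few messenger RNAs of the mitochondrial genome into core subunits of the respiratory chain. Its ribosomal RNAs come from mitochondrial DNA, whereas all of its proteins are encoded in the nucleus, made on cytosolic ribosomes and imported. The small subunit binds the messenger RNA and reads its codons, and the large subunit joins the amino acids. Many of the proteins have counterparts in bacterial ribosomes and carry their numbers, and many of the others are found only in mitochondria.

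Values below are the authors' read counts divided by a size factor for each library, called normalised read counts. Depth ran as low as 7020232 reads on listed genes, for the CD74-negative library, and as high as 13282126, for the CD74-positive one. The sorting markers followed the labels. Ace stood at 14202 in the ACE-positive library, against 136 in the ACE-negative library, and Cd74 stood at 20882 in the CD74-positive library, against 4382 in the CD74-negative library. Cd74 was also 6.60-fold higher in the ACE-positive library, and Ace 3.64-fold higher in the CD74-positive library. Genes that define macrophages, among them Csf1r, Adgre1 and C1qa, were read in all 4 libraries. So were the markers of other cell types described below.

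The members lie scattered over the genome and their products meet in 1 particle, so the sequence before their start sites is shown here. Promoters were taken from RefSeq (GRCm38.p6), from 250 bases before to 50 bases after the annotated start, and 68 members matched. Motifs of factors known to act on nuclear genes of mitochondria were searched on both strands: GCGCATGCG for NRF-1, CCGGAAG for ETS factors such as GABP, and AAGATGGC for YY1. No motif lies within another, and the NRF-1 letters overlap their own reverse complement. NRF-1 letters stood in 7 of the 68 promoters (10.3%), against 3.65% of the 11685 promoters of other listed genes. ETS letters stood in 25 (36.8%, against 17.7%) and YY1 letters in 12 (17.6%, against 4.60%). A match describes these letters and is not a measured binding site.

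The 6 stretches below come from the 8 members with at least 1 of these motifs in the 120 bases nearest before the start that touch no annotated exon. They are those with the 3 lowest mean ratios over both sorts (Mrpl58, Mrpl34, Mrpl22) and the 3 highest (Mrpl9, Mrpl52, Mrpl10). Capitals mark the NRF-1 or ETS letters.
Mrpl58, chr11:115403632-115403751, plus strand: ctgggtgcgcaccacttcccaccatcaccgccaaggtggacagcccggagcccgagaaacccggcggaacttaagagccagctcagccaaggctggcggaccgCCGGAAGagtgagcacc
Mrpl34, chr8:71464806-71464925, plus strand: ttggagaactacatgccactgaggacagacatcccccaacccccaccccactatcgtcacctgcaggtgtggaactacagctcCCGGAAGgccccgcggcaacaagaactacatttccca
Mrpl22, chr11:58171541-58171660, plus strand: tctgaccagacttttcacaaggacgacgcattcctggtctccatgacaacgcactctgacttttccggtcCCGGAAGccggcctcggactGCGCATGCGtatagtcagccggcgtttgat
Mrpl9, chr3:94443198-94443317, plus strand: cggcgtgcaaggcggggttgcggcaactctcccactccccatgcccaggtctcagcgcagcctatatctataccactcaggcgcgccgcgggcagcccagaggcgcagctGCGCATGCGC
Mrpl52, chr14:54426789-54426908, plus strand: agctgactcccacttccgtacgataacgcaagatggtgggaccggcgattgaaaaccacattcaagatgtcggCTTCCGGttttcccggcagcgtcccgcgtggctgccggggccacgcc
Mrpl10, chr11:97041440-97041559, plus strand: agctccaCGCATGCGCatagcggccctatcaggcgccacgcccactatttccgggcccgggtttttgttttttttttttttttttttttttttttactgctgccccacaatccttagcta
ETS letters stood in all 3 stretches with low ratios and, of the 3 with high ratios, in Mrpl52. NRF-1 letters stood in Mrpl22 among the low ratios and in Mrpl9 and Mrpl10 among the high ones. These 6 were picked by their ratios, so this is a description with no test.

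The mitoribosome genes took a smaller share of the reads in each positive library than in its negative library. They held 0.207% of reads (exact binomial 95% interval 0.205 to 0.210) in the ACE-positive library, against 0.335% [0.332 to 0.338] in the ACE-negative library. The share was 0.202% [0.200 to 0.205] in the CD74-positive library, against 0.343% [0.339 to 0.347] in the CD74-negative library. The shares of the positive libraries lay close together, and so did those of the negative libraries. All intervals in brackets are 95% intervals on the reads and cover counting error only, with each read taken as an independent draw. No variation between replicate libraries enters them, since the groups have no replicates. Reads also carry no molecular identifiers, so repeated reads of the same molecule cannot be set apart and the intervals may be too narrow. In bulk libraries such as these, fewer cells of a type and less RNA per cell cannot be told apart.

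In the ACE sort the mitoribosome genes were lower as a body in the ACE-positive library. A gene was called higher or lower where its mean normalised read count was at least 50, its log2 ratio of positive over negative reached 1 in either direction, and its ratio had an interval that excluded 1. Of the 77 members, 76 reached that mean, and 23 of these were called lower in the ACE-positive library. Among all 9895 genes that reached it, 9.66% were called lower. The median log2 ratio of the members was -0.78 (quartiles -1.08 and -0.56), beside -0.08 for all genes. The ratio lay below 1 for 74 members (54.6% of all genes), with an interval wholly below 1 for 72 (42.6% of all genes). Summed over the members, the level in the ACE-positive library was 0.560 times that of the ACE-negative library [0.551 to 0.569].

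Mrpl28 (GRCm38 chr17:26123500-26126613, plus strand), a large-subunit protein with a bacterial counterpart, had the lowest ratio of all. Its normalised read count was 399 in the ACE-positive library, against 1370.3 in the ACE-negative library, 3.44-fold lower [3.07 to 3.86]. Mrps18c, the small-subunit counterpart of bacterial S18, stood at 67.3 in the ACE-positive library, against 212 in the ACE-negative library, 3.15-fold lower [2.38 to 4.21]. The other 3 of the 5 lowest ratios belonged to Mrps16, which human mitochondria need for an intact small subunit, to Mrpl27, whose bacterial counterpart reaches toward the catalytic centre, and to Mrps14. Mrps16 stood at 313 in the ACE-positive library, against 843 in the ACE-negative library, 2.69-fold lower [2.36 to 3.08]. Mrpl27 stood at 111 in the ACE-positive library, against 297 in the ACE-negative library, 2.67-fold lower [2.14 to 3.36]. Mrps14 stood at 309.9 in the ACE-positive library, against 816 in the ACE-negative library, 2.63-fold lower [2.31 to 3.01]. All 5 were thus lower in the positive library than in the negative library and passed the call, and 3 of them are small-subunit genes.

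At the other end of the ACE sort, Mrps2, a small-subunit protein with a bacterial counterpart, was the 1 member whose interval lay wholly above 1, where 34.4% of all genes had such an interval. It stood at 378 in the ACE-positive library, against 317 in the ACE-negative library, ratio 1.19 [1.03 to 1.39], far short of the fold for a call. Mrps18b, a paralogue of Mrps18c, stood at 120.3 in the ACE-positive library, against 114 in the ACE-negative library, with an interval that includes 1 (ratio 1.06 [0.811 to 1.38]). Mrps34, a small-subunit protein particular to mitochondria whose exons mostly overlap those of neighbouring genes, stood at 58.1 in the ACE-positive library, against 66.7 in the ACE-negative library (ratio 0.871 [0.602 to 1.26]). These genes did not pass the call, and the intervals of Mrps18b and Mrps34 leave their direction unresolved at this depth. Mrps5, a small-subunit protein with a bacterial counterpart, stood at 306 in ACE+ cells and 360.0 in ACE- cells (ratio 0.850 [0.727 to 0.992]). Mrpl52, a large-subunit protein particular to mitochondria, stood at 643 in ACE+ cells and 766 in ACE- cells (ratio 0.840 [0.755 to 0.934]), with its interval below 1.

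The members with the highest mean values carry the narrowest intervals. Mrpl30, a large-subunit protein, had the highest mean in the ACE sort and stood at 704 in the ACE-positive library, against 1443 in the ACE-negative library, 2.05-fold lower [1.87 to 2.25]. Mrps21, of the small subunit, stood at 502 in the ACE-positive library, against 1045 in the ACE-negative library, 2.08-fold lower [1.87 to 2.32]. Mrpl12, the stalk protein that helps to bring translation factors to the ribosome, stood at 626 in the ACE-positive library, against 1175 in the ACE-negative library (ratio 0.533 [0.483 to 0.588]), which is past its counting error and short of the call. Mrpl30 and Mrps21 were thus called in this sort and Mrpl12 was not. Mrps23 stood at 484 in the ACE-positive library, against 962 in the ACE-negative library (ratio 0.503 [0.450 to 0.562]), just under the fold for a call. Mrpl4, of the large subunit, stood at 643 in the ACE-positive library, against 995 in the ACE-negative library (ratio 0.647 [0.585 to 0.715]). These 5 and Mrpl28 made up the 6 highest means, and in each the ACE-negative library was the higher one.

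The call depends on the scaling in this sort, where 14 members and 6.58% of all genes were called lower with plain library totals. Of all genes called in the ACE sort, 52.0% were higher in the ACE-positive library with the authors' size factors, 66.7% with plain totals and 62.0% with totals that leave out the 50 most abundant genes.

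**Figure D1:**
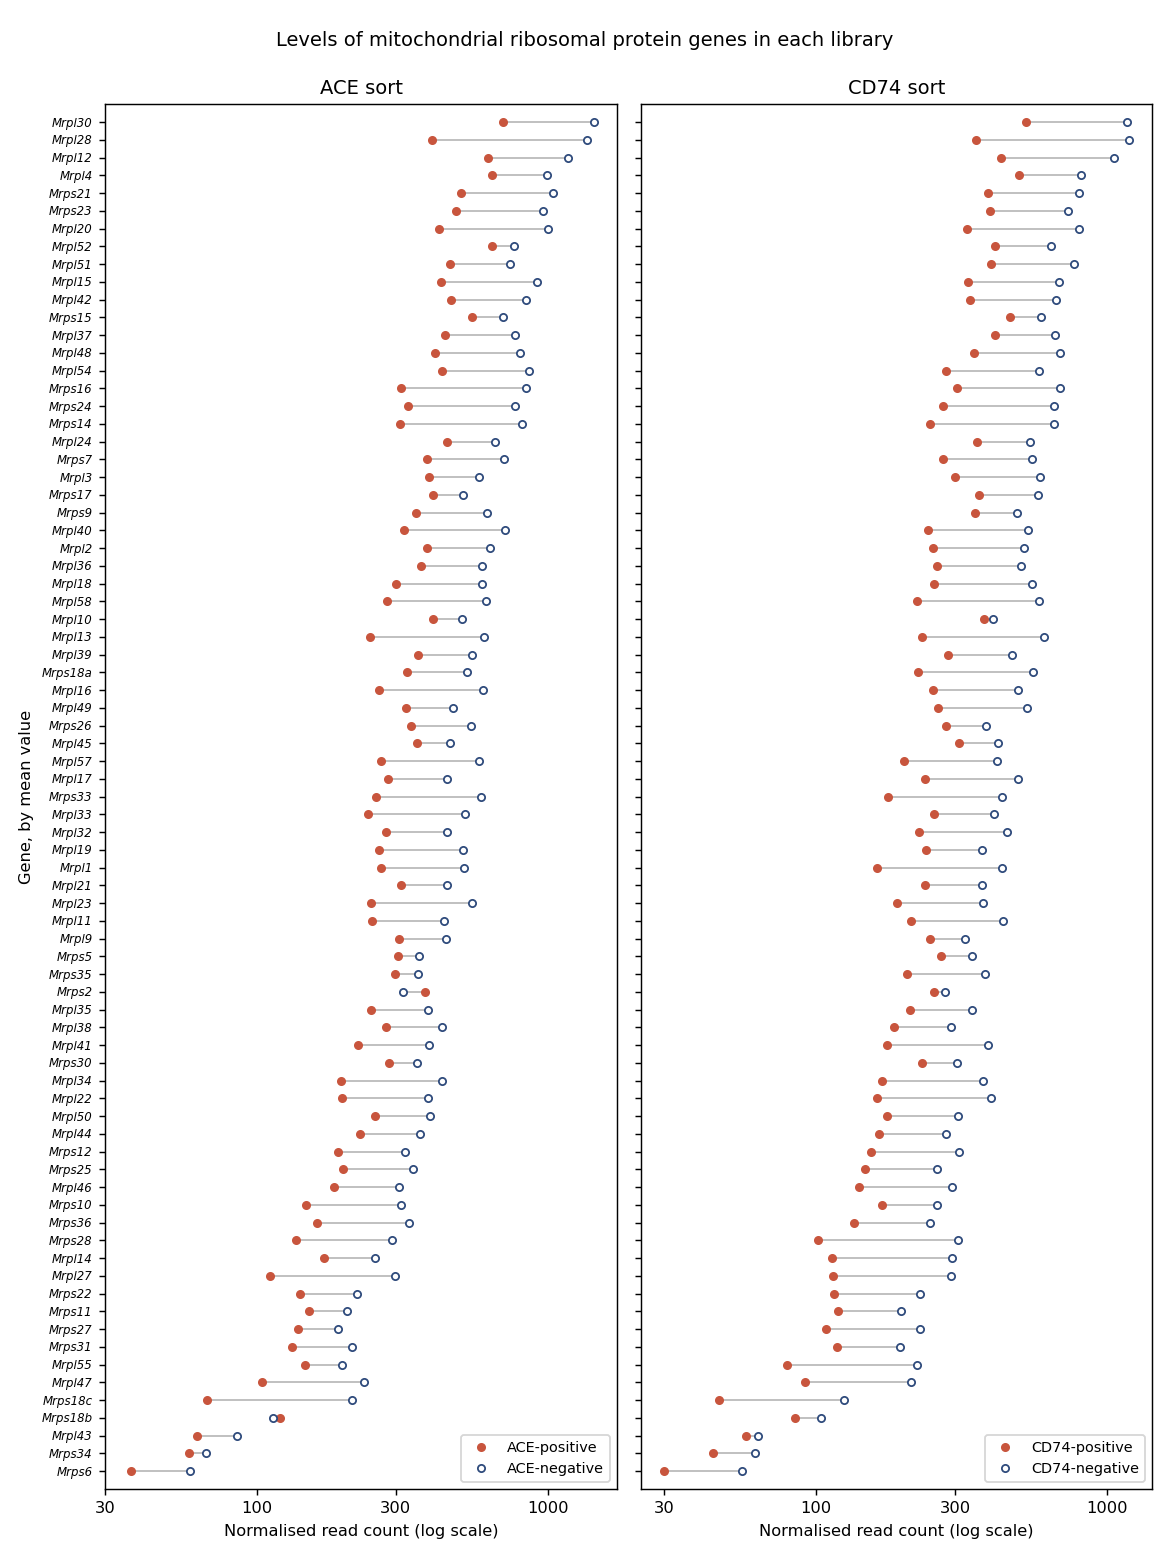
Normalised read count (log scale) of each of the 77 members, ordered by mean value, in the ACE sort (left) and the CD74 sort (right). Filled points are the positive library and open points the negative library, and a grey line joins the 2 values of a gene. The filled point lies left of the open point for nearly every gene, with Mrps2 and Mrps18b the exceptions in the ACE sort.

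In the CD74 sort the mitoribosome genes were again lower in the positive library, and more of them were called. Of the 76 members with a mean of at least 50, 36 were called lower in the CD74-positive library, where 8.42% of all 9674 genes were. The median log2 ratio of the members was -0.98 (quartiles -1.15 and -0.68), beside -0.03 for all genes. All 76 had a ratio below 1 (51.3% of all genes), and the interval lay wholly below 1 for 71 (38.5% of all genes). Summed over the members, the level in the CD74-positive library was 0.521 times that of the CD74-negative library [0.512 to 0.530].

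Mrpl28 had the lowest ratio here too, with 354 in the CD74-positive library, against 1187 in the CD74-negative library, 3.36-fold lower [3.001 to 3.75]. Mrps28, of the small subunit, stood at 101 in the CD74-positive library, against 306 in the CD74-negative library, 3.03-fold lower [2.44 to 3.76]. Mrpl55, a large-subunit protein particular to mitochondria, stood at 79.2 in the CD74-positive library, against 221 in the CD74-negative library, 2.79-fold lower [2.18 to 3.58]. The other members among the 5 lowest ratios were Mrpl1, whose bacterial counterpart forms the stalk beside the site where transfer RNAs leave, and Mrps14. Mrpl1 stood at 162 in the CD74-positive library, against 435 in the CD74-negative library, 2.69-fold lower [2.26 to 3.20]. Mrps14 stood at 245 in the CD74-positive library, against 654 in the CD74-negative library, 2.67-fold lower [2.32 to 3.07]. Mrpl28 and Mrps14 were thus among the 5 lowest ratios of both sorts.

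The highest ratios of the CD74 sort did not pass the call. Mrpl10, which anchors the stalk that carries Mrpl12, stood at 378 in the CD74-positive library, against 404 in the CD74-negative library (ratio 0.935 [0.808 to 1.08]). Mrps2 stood at 255 in the CD74-positive library, against 277 in the CD74-negative library (ratio 0.921 [0.771 to 1.10]). Mrpl43, of the large subunit and partly overlapping a neighbouring gene, stood at 57.4 in the CD74-positive library, against 62.95 in the CD74-negative library (ratio 0.911 [0.624 to 1.35]). All 3 intervals include 1, and the ratios of these 3 genes pass above 1 with plain library totals. Mrps18b stood at 84.7 in CD74+ cells and 104 in CD74- cells (ratio 0.815 [0.604 to 1.11]). Mrps15, a small-subunit protein with a bacterial counterpart, stood at 464 in CD74+ cells and 593 in CD74- cells (ratio 0.782 [0.691 to 0.887]), with its interval below 1.

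Among members with the highest means, Mrpl30 stood at 527 in the CD74-positive library, against 1169.7 in the CD74-negative library, 2.22-fold lower [2.01 to 2.46]. Mrpl12 stood at 432 in the CD74-positive library, against 1054 in the CD74-negative library, 2.44-fold lower [2.19 to 2.72]. Mrps21 stood at 389 in the CD74-positive library, against 798 in the CD74-negative library, 2.05-fold lower [1.82 to 2.31]. All 3 were called, Mrpl12 in this sort alone. Mrpl4 stood at 497 in CD74+ cells and 811 in CD74- cells (ratio 0.612 [0.547 to 0.685]) and was not called. Mrpl51, of the large subunit, stood at 399 in CD74+ cells and 767 in CD74- cells (ratio 0.520 [0.461 to 0.586]) and was not called either.

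Here 17 members and 5.0% of all genes were called lower with plain library totals. With totals that leave out the 50 most abundant genes, 23 members and 6.34% of all genes were. Of all genes called in the CD74 sort, 54.3% were higher in the CD74-positive library with the authors' size factors, 73.8% with plain totals and 66.0% without the 50 most abundant genes.

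Mrps6, a small-subunit protein with a bacterial counterpart, was the 1 member under the mean of 50 in both sorts and so took no call. It stood at 36.7 in ACE+ cells and 58.9 in ACE- cells on 36 and 60 reads, and at 30.1 in CD74+ cells and 55.6 in CD74- cells on 44 and 38 reads. Its ratio interval lay below 1 in each.

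Set side by side, 18 members were called lower in both sorts, where 5.24% of the 9595 genes tested in both were. No member was called higher in either sort, where 14.2% of those 9595 genes were called higher in at least 1. A further 5 were called lower in the ACE sort alone, 18 in the CD74 sort alone and 35 in neither. The interval lay wholly below 1 in both sorts for 71 members, and for none did it lie above 1 in one sort and below 1 in the other. The log2 ratios of the sorts had a Pearson r of 0.72 over the 76 members and of 0.78 over 9519 other genes, as a description. The ratio was lower in the CD74 sort for 55 of the 76 members. For 8 members the counting intervals of the ratio in the sorts did not overlap (Mrpl12, Mrps18a, Mrpl3, Mrpl49, Mrpl14, Mrpl55, Mrpl52 and Mrps35), and each of these had the lower ratio in the CD74 sort. Mrpl55 lay furthest apart, at 0.358 in the CD74 sort and 0.747 in the ACE sort. The sorts were scaled separately and hold 1 library per group, so no test of this difference was possible. These counts were not made over all genes, so they cannot be read as particular to the members.

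**Figure D2:**
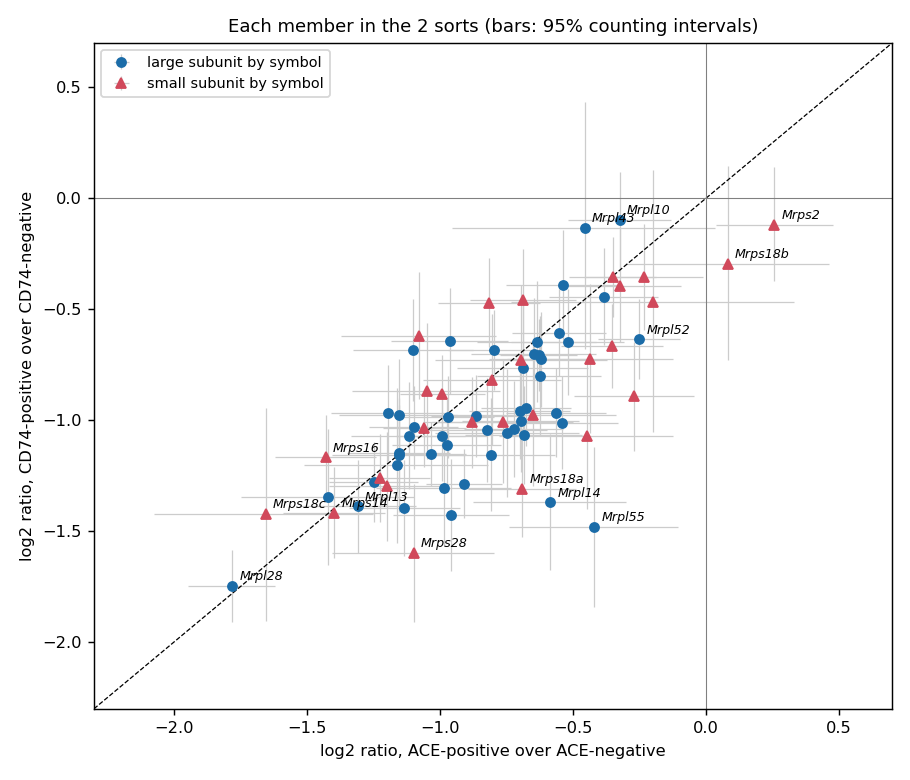
The log2 ratio of each of the 76 members with a mean of at least 50 in the ACE sort (horizontal) and the CD74 sort (vertical), with bars for 95% counting intervals and a dashed line where both are equal. Circles are large-subunit genes and triangles small-subunit genes by symbol. Mrpl28 lies lowest in both sorts, and 55 of the 76 members lie below the dashed line.

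The order of levels among members was alike in all libraries. Across the 77 members the log2 levels had a Pearson r of 0.97 between the negative libraries of the sorts and of 0.97 between the positive ones, and of 0.91 within either sort. Per kilobase of annotated exon, Mrps21 had the highest level in each library, with 679 in the ACE-positive library, 1414 in the ACE-negative library, 526 in the CD74-positive library and 1079.7 in the CD74-negative library. The highest and lowest member differed 37.1-fold in the ACE-positive library, 43.7-fold in the ACE-negative library, 26.8-fold in the CD74-positive library and 36.2-fold in the CD74-negative library on that scale. Per kilobase of the principal messenger RNA, Mrpl52 had the highest level in the positive libraries and Mrps21 in the negative libraries.

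The large and the small subunit differed little. In the ACE sort 14 of 48 large-subunit genes and 9 of 28 small-subunit genes were called lower, with median log2 ratios of -0.80 and -0.73. Of the CD74 sort's genes, 25 of 48 large-subunit genes and 11 of 28 small-subunit genes were called lower, with medians of -1.005 and -0.87. The large subunit was lower by 0.08 in the ACE sort and by 0.13 in the CD74 sort (log2 medians). Measured against genes of similar length, large minus small was -0.014 in the ACE sort and 0.067 in the CD74 sort, so the sign of this small difference depends on that step. Large-subunit genes took 67.6% of member reads in the ACE-positive library, 68.7% in the ACE-negative library, 67.0% in the CD74-positive library and 68.9% in the CD74-negative library.

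Symbols do not always give the subunit. Mrps30 and Mrps18a are proteins of the large subunit, and Mrps36 is now known as a subunit of the oxoglutarate dehydrogenase complex. With these placed accordingly, the difference between subunits was -0.0097 in the ACE sort and -0.12 in the CD74 sort. Mrps30 stood at 283 in ACE+ cells and 355 in ACE- cells (ratio 0.798 [0.680 to 0.936]) and was called in neither sort, with a ratio of 0.760 in the CD74 sort. Mrps36 was 2.07-fold lower [1.71 to 2.52] in the ACE-positive library and stood at 135 in CD74+ cells and 246 in CD74- cells (ratio 0.547 [0.443 to 0.676]).

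Mammals have 3 paralogues of bacterial S18, and the ratios of all 3 differed in the ACE sort. Mrps18c was called lower in both sorts, 3.15-fold in the ACE sort and 2.68-fold in the CD74 sort. It stood at 46.4 in the CD74-positive library, against 124 in the CD74-negative library. Mrps18a was called in the CD74 sort alone, with 223 in the CD74-positive library, against 553 in the CD74-negative library, 2.48-fold lower [2.13 to 2.88]. It stood at 328 in ACE+ cells and 529.7 in ACE- cells (ratio 0.620 [0.538 to 0.713]). Mrps18b was called in neither. In the ACE sort the counting intervals of the 3 ratios did not overlap, with Mrps18c lowest and Mrps18b highest. In the CD74 sort the interval of Mrps18a [0.347 to 0.469] lay within that of Mrps18c [0.267 to 0.520]. That of Mrps18b [0.604 to 1.11] lay above both. Both Mrps18b and Mrps18c share exon bases with a neighbouring gene, 30.5% and 23.2% of their own, and reads of the neighbours cannot be told apart from theirs.

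Further members with known roles lay between these ends. Mrps12, a counterpart of the bacterial protein at the decoding centre, stood at 189.6 in ACE+ cells and 322 in ACE- cells (ratio 0.589 [0.490 to 0.708]) and was 2.01-fold lower [1.66 to 2.44] in the CD74-positive library. Mrpl11, at the base of the stalk, stood at 249 in ACE+ cells and 440.4 in ACE- cells (ratio 0.565 [0.481 to 0.662]) and was 2.06-fold lower [1.75 to 2.42] in the CD74-positive library. Both passed the call in the CD74 sort alone, with ratio intervals that overlap between the sorts. Mrpl58, which can free a stalled chain by cutting its bond to transfer RNA, was called in both sorts, 2.19-fold lower in the ACE-positive library and 2.63-fold lower in the CD74-positive library. Mrpl41, particular to mitochondria, stood at 222 in ACE+ cells and 389 in ACE- cells (ratio 0.571 [0.482 to 0.675]) and was 2.23-fold lower [1.87 to 2.65] in the CD74-positive library. Mrpl3, Mrpl44, whose fold is that of a double-strand RNA nuclease, and Mrps22, particular to mitochondria, were called in neither sort. Their ratios were 0.676, 0.620 and 0.637 in the ACE sort and 0.512, 0.589 and 0.509 in the CD74 sort, with every interval below 1.

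Members numbered as bacterial ribosomal proteins had median log2 ratios of -0.82 in the ACE sort and -1.002 in the CD74 sort, with 15 and 23 of 43 called lower. Members with higher numbers were those above 36 in the large and above 21 in the small subunit by symbol. Their medians were -0.69 and -0.94 in the same order, with 8 and 13 of 33 called lower. A higher number does not in itself show that a protein lacks a bacterial counterpart, and this class also holds Mrps36. Against messenger RNAs of similar length the order turned in the CD74 sort. The medians there were -0.26 for members numbered as bacterial proteins and -0.47 for those with higher numbers. In the ACE sort these medians were -0.32 and -0.31. The division was made by number after the values were known and was not tested.

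Gene length moved with the ratio in both sorts, and the members are short. Their length, with all annotated exons of a gene joined, ran from 607 to 8631 bases. The median was 2541.5 bases for the 76 members with a mean of at least 50 in the ACE table, against 4642 for all genes over that mean. With genes parted by length into 5 classes of near equal size, short to long, the median log2 ratio of genes other than members was -0.52, -0.27, -0.08, 0.09 and 0.36 in the ACE sort. For the CD74 sort these medians were -0.62, -0.22, 0.01, 0.22 and 0.49. Longer genes thus had higher ratios in both sorts. The members showed no such steady order. Their medians in the same classes were -0.72, -0.95, -0.74, -0.62 and -1.07 in the ACE sort and -1.01, -1.05, -0.96, -0.67 and -0.98 in the CD74 sort, over 41, 12, 10, 8 and 5 members. The Pearson r between log length and log2 ratio was 0.11 over the members and 0.32 over other genes in the ACE sort, and 0.27 and 0.48 in the CD74 sort, as a description.

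Against genes of similar length the members lay lower too, by less. Each member was set against the median of the 200 other genes nearest to it in length, and the difference is called its length-centred log2 ratio. Its median over the members was -0.44 in the ACE sort, where 10 of 76 were called lower on this centred scale and 5.58% of all genes were. The median was -0.50 in the CD74 sort, with 16 of 76 called lower and 4.81% of all genes. A member lay below genes of similar length in 65 of 76 cases in the ACE sort and 69 of 76 in the CD74 sort, where 50.3% of all genes did in either sort, and 65 did so in both. The joined exons of a gene can be much longer than its messenger RNA. Set against genes of similar principal messenger RNA length, the medians were -0.31 in the ACE sort and -0.29 in the CD74 sort, with 9 (5.07% of all genes) and 15 (3.50% of all genes) called lower. By that length 60 of 76 members lay below similar genes in the ACE sort and 57 of 76 in the CD74 sort, where 50.1% of all genes did in either. What the slope with length comes from was not tested.

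**Figure D3:**
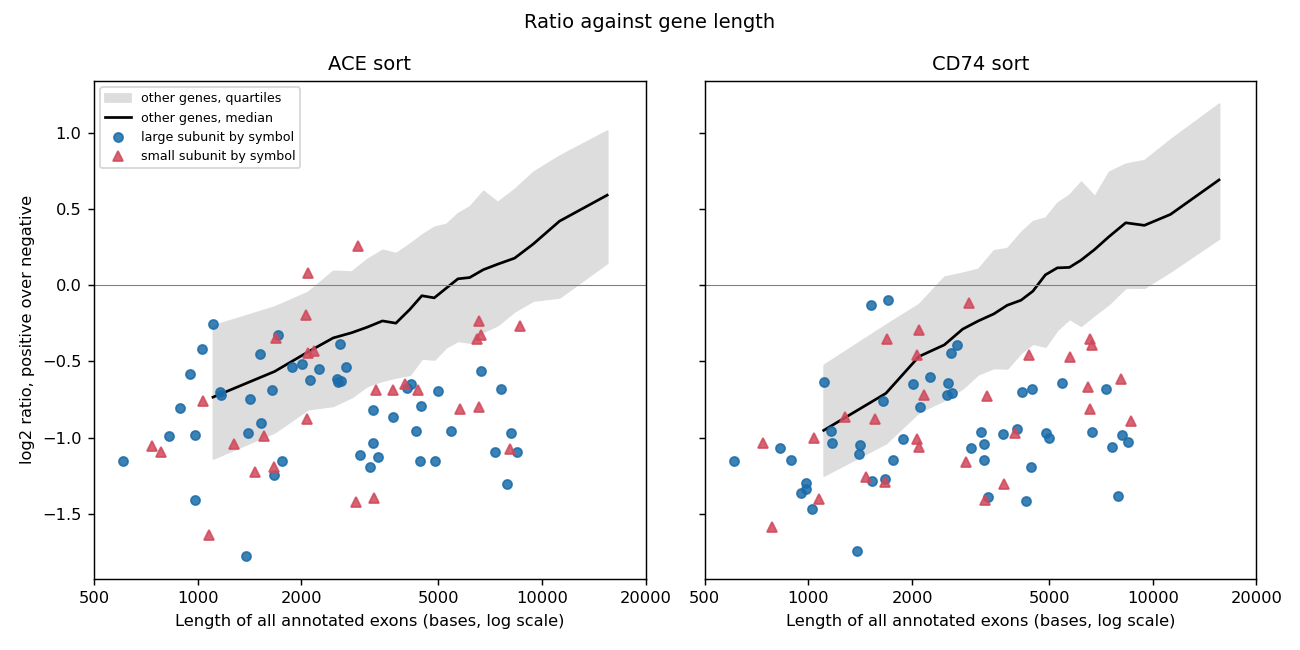
The log2 ratio of positive over negative against the length of all annotated exons (bases, log scale) in the ACE sort (left) and the CD74 sort (right). The black line and grey band are the median and quartiles of the other genes in bins of length, circles are large-subunit genes and triangles small-subunit genes by symbol. Other genes slope upward with length, and every member in the 3 longest classes of length lies below its neighbours in length in both sorts.

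Mrpl13 and Mrpl15, both long for members, lay furthest below genes of similar length in both sorts. Mrpl13 (7936 bases) had length-centred log2 ratios of -1.40 in the ACE sort and -1.68 in the CD74 sort, and was called lower in both sorts by the plain ratio too, 2.48-fold and 2.62-fold. Mrpl15 (8487 bases) had -1.32 and -1.46, and its plain fold was 2.14-fold in the ACE sort and 2.05-fold in the CD74 sort. Both are large-subunit proteins with bacterial counterparts. Against messenger RNAs of similar length Mrpl15 remained at -1.13 and -1.23, whereas Mrpl13 stood at -0.71 and -0.68. Mrpl33 had -1.21 in the ACE sort by gene length and -0.08 by messenger RNA length. The others among the 4 lowest were Mrps14 in the ACE sort (-1.18) and Mrpl48 (-1.42) and Mrpl17 (-1.39) in the CD74 sort.

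The members furthest above genes of similar length were Mrps2 (0.58), Mrps18b (0.52), Mrpl52 (0.49) and Mrpl55 (0.34) in the ACE sort. Those of the CD74 sort were Mrpl43 (0.68), Mrpl10 (0.58), Mrps15 (0.32) and Mrpl52 (0.30). Mrpl52 was the 1 gene among the 4 highest in both sorts, and Mrpl55 lay on the other side in the CD74 sort, at -0.50.

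The other lists of the mitochondrial translation apparatus differed in their plain ratios. Of 4 further mitoribosome proteins whose symbols lie outside the rule, Chchd1, of the small subunit, was 2.82-fold lower [2.44 to 3.27] in the ACE-positive library and 2.71-fold lower [2.35 to 3.14] in the CD74-positive library. Aurkaip1, also of the small subunit, stood at 682 in ACE+ cells and 1358 in ACE- cells (ratio 0.502 [0.457 to 0.551]) and was 2.28-fold lower [2.06 to 2.51] in the CD74-positive library. Dap3, which binds GTP in the small subunit, and Ptcd3 were called in neither sort. The median log2 ratio of the 4 was -0.86 in the ACE sort and -1.04 in the CD74 sort.

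By plain ratio, translation factors of mitochondria lay closer to the median of all genes than the members did. Of 11, none was called in either sort, where 9.66% of all genes in the ACE sort and 8.42% in the CD74 sort were called lower. In a list of 11 this count is near those shares. The median log2 ratios of the 11 were -0.13 in the ACE sort and -0.26 in the CD74 sort. These genes are longer, with a median messenger RNA of 2623 bases, against 1324 for the members. Against messenger RNAs of similar length their median was -0.03 in the ACE sort, beside -0.31 for the members, and -0.25 in the CD74 sort, beside -0.29 for the members, so that little of the gap was left in the CD74 sort. Tufm, the elongation factor that brings transfer RNA to the mitoribosome, stood at 580.1 in ACE+ cells and 889 in ACE- cells (ratio 0.653 [0.587 to 0.726]) and at 483 in CD74+ cells and 779 in CD74- cells (ratio 0.620 [0.553 to 0.695]). Oxa1l, which inserts the new proteins into the inner membrane, stood at 917 in ACE+ cells and 750.4 in ACE- cells (ratio 1.22 [1.11 to 1.35]) and at 674 in CD74+ cells and 590.0 in CD74- cells (ratio 1.14 [1.02 to 1.29]). The intervals of Tufm thus lay below 1 in both sorts and those of Oxa1l above 1.

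By plain ratio, genes for mitoribosome assembly and ribosomal RNA modification stood between the members and the translation factors. In the ACE sort 4 of 24 were called lower, where 9.66% of all genes were, and the median was -0.63. These 4 were Mrm2 and Mrm3, which methylate mitochondrial ribosomal RNA, and the assembly factors Rcc1l and Gtpbp10. In the CD74 sort 0 of 23 were called lower, where 8.42% of all genes were, at a median of -0.60. Against messenger RNAs of similar length they no longer stood between, with a median of -0.38 in the ACE sort, below that of the members, and of -0.28 in the CD74 sort, close to that of the members. Afg3l2, the inner-membrane protease that matures a large-subunit protein, had the highest ratio of the list in the ACE sort, at 814 in ACE+ cells and 461 in ACE- cells (ratio 1.76 [1.57 to 1.98]). Of 14 genes for mitochondrial DNA transcription and RNA handling, 1 was called lower in each sort, near the shares of all genes. It was Hsd17b10, a part of the ribonuclease P that frees mitochondrial transfer RNAs. The medians of the 14 were -0.07 in the ACE sort and -0.05 in the CD74 sort.

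The genes that the mitoribosome serves, and the other ribosome, were lower in the positive libraries as the members were. Of the mitochondrially encoded messenger RNAs, 6 of 12 were called lower in the ACE sort (median -1.04) and 10 of 12 in the CD74 sort (median -1.22). mt-Co3, a core subunit of cytochrome oxidase, was 2.43-fold lower in the ACE-positive library and 3.37-fold lower in the CD74-positive library. mt-Co1, with the highest mean of the list in the ACE sort, was 1.26-fold lower in the ACE-positive library. Summed over the list, positive over negative was 0.691 in the ACE sort and 0.548 in the CD74 sort. These summed ratios were 0.560 and 0.521 for the members. Of nuclear oxidative phosphorylation subunits, 45 of 79 were called lower in the ACE sort (median -1.08) and 56 of 80 in the CD74 sort (median -1.13). Of cytosolic ribosomal proteins, 54 of 80 (median -1.17) and 76 of 80 (median -1.43) were called lower in the same order. None of these 3 lists had a gene called higher, where 1035 of all 9895 genes were in the ACE sort and 969 of 9674 in the CD74 sort. Against messenger RNAs of similar length the medians drew together. They were -0.31, -0.12, -0.39 and -0.36 for mitoribosome, mitochondrially encoded, oxidative phosphorylation and cytosolic ribosome genes in the ACE sort. The same 4 medians in the CD74 sort were -0.29, -0.36, -0.28 and -0.49.

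**Figure D4:**
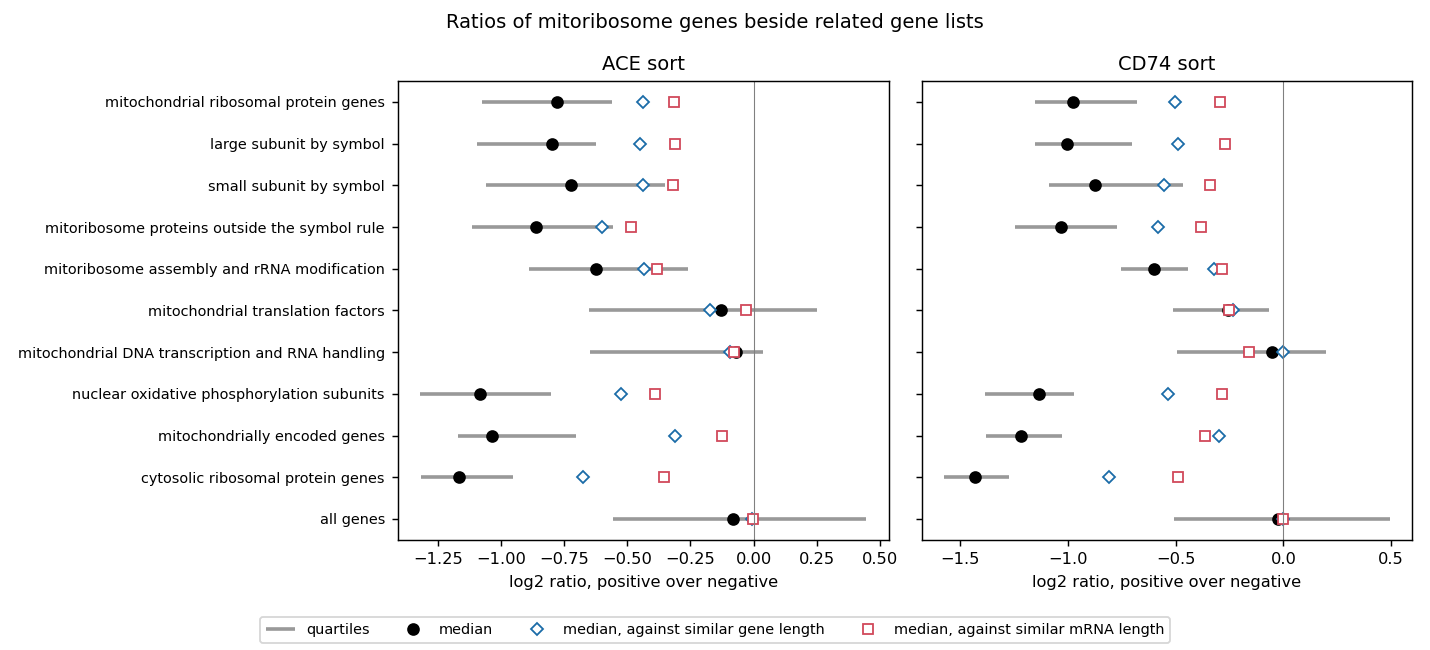
Median log2 ratio of positive over negative (black points) with quartiles (grey bars) for the mitoribosome genes, their subunits and related gene lists in the ACE sort (left) and the CD74 sort (right). Diamonds and squares give the median against genes of similar gene length and of similar messenger RNA length. Mitoribosome genes lie at -0.78 in the ACE sort and -0.98 in the CD74 sort, and translation factors at -0.13 and -0.26.

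Most dividing-cell markers shared the direction of the members. Of 8 such markers (Mki67, Top2a, Stmn1, Mcm5, Tyms, Birc5, Ccnb1 and Cdk1), 7 were called lower in the ACE-positive library and 4 in the CD74-positive library. Mki67 went the other way in the CD74 sort, at 7917 in the CD74-positive library, against 5719.7 in the CD74-negative library (ratio 1.38 [1.33 to 1.44]), short of the call. The summed level of the 8 was 11624 in the ACE-positive library, against 28500.0 in the ACE-negative library. It was 20091 in the CD74-positive library, against 27339 in the CD74-negative library. None was at 0 in any library. The part of dividing cells in the ratios of the members was not tested.

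Markers of other cell types moved too. For comparison, 1035 of all 9895 genes were called higher in the ACE sort and 969 of all 9674 in the CD74 sort. Of 6 neutrophil markers, 1 was called lower in the ACE sort and 3 in the CD74 sort, with summed levels of 121632 in the ACE-positive library against 175662 in the ACE-negative library. The sums were 123582 in the CD74-positive library against 249250.0 in the CD74-negative library. Of the T and NK cell markers, 3 of the 3 with a mean of at least 50 were called lower in the ACE sort and 2 of 3 in the CD74 sort, while the defining gene Cd3e had between 4 and 10 reads in each library. They had summed levels of 213 and 885 in the ACE-positive and ACE-negative libraries and 282 and 837 in the CD74-positive and CD74-negative libraries. Neutrophil and T and NK cell markers thus had lower sums in both positive libraries. Ly6g alone of the neutrophil markers had a ratio above 1 in the ACE sort (1.23 [1.10 to 1.37]). In the CD74 sort all 6 neutrophil markers had a ratio below 1. Macrophage markers were called higher for 5 of 8 in the ACE sort and 2 of 8 in the CD74 sort, and summed to 62046 in ACE+ cells and 27229 in ACE- cells, and to 35821 in CD74+ cells and 22000.4 in CD74- cells. Endothelial markers were called higher for 2 of 3 in both sorts, and summed to 1109 in ACE+ cells and 646 in ACE- cells, and to 939 in CD74+ cells and 657 in CD74- cells. These lists had higher sums in both positive libraries.

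By their calls, the remaining lists differed in direction between the sorts or were called in 1 sort alone. Erythroid markers were called higher for 3 of 6 in the ACE sort and lower for 4 of 6 in the CD74 sort, with sums of 9211 in ACE+ cells and 4986 in ACE- cells, and of 5155 in CD74+ cells and 12341 in CD74- cells. Basophil and mast cell markers were called lower for 3 of 4 in the ACE sort and higher for 4 of 4 in the CD74 sort, with sums of 1172 in ACE+ cells and 2576 in ACE- cells, and of 6909 in CD74+ cells and 1537 in CD74- cells. Fibroblast and bone markers were called higher for 4 of 6 in the ACE sort and lower for 1 of 6 in the CD74 sort. Their sums were 30607 in ACE+ cells and 9757 in ACE- cells, and 19664 in CD74+ cells and 13217 in CD74- cells. These sums were thus higher in both positive libraries. B cell markers were called higher for 2 of 4 in the ACE sort and 0 of 4 in the CD74 sort, with sums of 1576 in ACE+ cells and 941 in ACE- cells, and of 1006 in CD74+ cells and 1741 in CD74- cells. Of the markers that the tables list, none was at 0 in any library, and their part in the ratios of the members was not tested.

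Neighbouring genes limit some members. Of the 77, 32 share exon bases with another annotated gene, and 17 share at least 10% of their own. The share was 77.8% for Mrps34, 69.8% for Mrps25 and 33.4% for Mrpl43, whose neighbour is the mitochondrial helicase gene Twnk. Mrpl46 and Mrps11 overlap each other head to head. Whether the counting used strand is not given in the sources used here, so reads of such neighbours cannot be told apart. Without the 17 the median log2 ratios were -0.78 in the ACE sort and -0.97 in the CD74 sort.

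For 0 of the 77 members did the authors' deposited tables give an adjusted p-value under 0.05 in either sort, where the lowest adjusted p-value of a member was 1. How many of all genes fell under 0.05 was not counted, so this cannot be read as particular to the members. The authors' deposited tables gave the lowest unadjusted p-value of a member to Mrpl28 in both sorts, 0.0390 in the ACE sort and 0.0444 in the CD74 sort.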

How the data were processed

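RNA-seq libraries of CX3CR1+ cells sorted from mouse periosteum by ACE or CD74 were used, 1 per group, made per the labels' protocols from Trizol-extracted RNA with a TruSeq kit. Per the submitters' processing notes, HISAT2 and the build GRCm38 were used. No name was found for the read counter, the annotation or the statistical test, and the use of strand is likewise not given in the sources used here. Per the file headers, the authors deposited a size-factor-normalised signal per gene and library, and a p-value and adjusted p-value per gene. The labels of the CD74 samples name their table otherwise than the deposited table, whose header was followed.

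The comparisons had been planned as descriptions and fold calls on normalised values, without a test between conditions, and no count model was used as the main result. Within a library all values were whole multiples of 1 read (100% within 0.001 reads), so reads were recovered for totals and counting intervals. One read was worth 1.02 in the ACE-positive library, 0.981 in the ACE-negative library, 0.683 in the CD74-positive library and 1.46 in the CD74-negative library. A count of 0 would allow up to 3 reads. Log2 ratios used value + 1, which understates the ratio of low genes. Ratios and folds used the values alone, with exact conditional binomial (Clopper-Pearson) 95% intervals on the reads. Calls compare 2 libraries, not the conditions, and with no residual degrees of freedom neither edgeR's quasi-likelihood model nor DESeq2 could be fitted, so no SD or p-value was computed. Levels of different tables were scaled separately.

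The length column equalled the joined exons of GENCODE M21 for 98.0% of genes in the ACE table and for all 77 members. Principal messenger RNAs were the best APPRIS transcripts of that annotation. The tables held 0 per-library columns beyond those used. Python 3.11.15 (numpy 2.4.6, pandas 2.3.3, scipy 1.17.1, matplotlib 3.10.9) and, for TMM, edgeR 4.0.16 in R 4.3.3 were used, and the steps were tested on simulated data.

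The members, gene lists and rules were chosen with earlier results of these data known. Members named with values were, in each table, the 6 highest means, the 5 highest and 5 lowest ratios, the 4 highest and 4 lowest length-centred ratios, and a set with known roles. From other lists, genes with high means or large ratios were named.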

Additional observations from a re-analysis of the deposited data

How the results depend on the processing

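No paired analysis was possible because each group holds 1 library, and leaving out a replicate was not possible for the same reason. Under the first set of settings, 68 recomputed values moved by less than counting error (for counts, 1.5 times). A further 13 moved by more, 5 counts became smaller, 2 became larger and 2 values changed sign. Under the settings added after seeing the data, 5 moved by less, 5 moved by more, 2 counts became smaller and 2 values changed sign. No member was called higher under any setting, and these counts of 0 are among the 68. Plain totals moved the median of all genes by 0.14 in the ACE sort and 0.18 in the CD74 sort, and totals without the 50 most abundant genes by 0.10 in the CD74 sort. Relative to all genes, the members stood at -0.70 and -0.95 under each scaling. A scaling shifts every gene by the same amount, so this difference could not change.

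In the ACE sort the median of the members (-0.78) was -0.63 with plain totals, -0.68 without the 50 most abundant genes and -0.81 with a minimum of 200. The 23 members called lower were 14 with plain totals, 55 at 1.5-fold (23.7% of all genes), 10 after centring by gene length and 9 by messenger RNA length. Large minus small subunit (-0.08) was 0.0072 with a minimum of 200, -0.014 after centring by gene length, 0.0085 by messenger RNA length and -0.0097 by place in the mitoribosome. The length-centred median (-0.44) was -0.58 with no minimum, -0.31 by messenger RNA length and -0.32 with its GC content as well.

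In the CD74 sort the median (-0.98) was -0.80 with plain totals and -0.87 without the 50 most abundant genes. The 36 called lower were 17 with plain totals, 23 without the 50 most abundant genes, 64 at 1.5-fold (21.8% of all genes), 16 after centring by gene length and 15 by messenger RNA length. Large minus small subunit (-0.13) was 0.067 after centring by gene length and 0.073 by messenger RNA length. The length-centred median (-0.50) was -0.71 with no minimum, -0.56 with a minimum of 200, -0.47 with the 100 nearest genes, -0.55 with the 500 nearest, -0.56 with genes nearest in length and mean value, -0.29 by messenger RNA length, -0.35 with its GC content as well, and -0.59 without members that share at least 10% of their exon bases. The messenger RNA, GC and shared-exon settings were chosen after seeing the data. The cause of these changes was not tested. Members had between 36 and 1471 reads in a library, which limits the precision of the lowest ones, Mrps6, Mrps34 and Mrpl43.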
